A study of Mus musculus with 53 samples.

Results

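SS64 and SS40 are a pair of mouse synovial sarcoma cell lines, and the data compared here are the 8 arrays taken at baseline, 4 of SS64 with the negative control (SS64 NC) and 4 of SS40 with the negative control (SS40 NC). They were chosen by their labels from the 53 arrays of the series, which also holds both lines with *miR-214* (4 arrays each), tumors, embryonic mesenchymal cells (eMCs) and a normal tissue mix. In the model, eMCs from the limb soft parts of late BALB/c embryos received a retrovirus that carries *SS18-SSX1*, the fusion oncogene of human synovial sarcoma, and were transplanted into nude mice, whose tumors are then tissue of 1 donor strain in a host that lacks T cells. The labels number the lines as 64 and 40 and call both mouse synovial sarcoma, with no age, sex or passage. The study's own text writes SS60 in place of SS64, and the labels' name is kept here. Both lines grew in DMEM with fetal bovine serum. What the negative control consisted of is not given in the sources used here, and each line stands for a single number, so a difference between them is one between these lines and not between kinds of tumor. Nothing in the labels says that the 4 arrays of a line came from separate cultures, so p-values measure the spread between arrays, which may be technical.

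Synovial sarcoma is a soft tissue tumor of young adults that often arises near the joints of a limb. The fusion protein joins SS18, a subunit of the SWI/SNF (BAF) chromatin remodelling complex, to an SSX protein that binds chromatin marked by Polycomb, and the resulting complexes turn on developmental genes such as *Sox2*. Human tumors are recognized by TLE1 and BCL2 and appear as a spindle cell form or as a biphasic form with epithelial glands. The lines thus share 1 oncogene and 1 tissue of origin, and the comparison asks in which genes they nevertheless differ.

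Values are the log2 of the deposited intensity of a probe set (1 number per probe set and array). Intensities under a floor of 11.7, or 3.55 on the log2 scale, were raised to it, and each gene took its brightest probe set. Differences are SS64 NC minus SS40 NC in log2 units, so that 1 unit is a 2-fold difference and a positive value is higher in SS64. A gene was called at a limma adjusted p under 0.05 and a difference of over 2-fold. Where all 4 arrays of a line were at the floor, a fold is given as a lower bound.

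The lines were far apart compared with their arrays. Of 15547 genes tested, 970 were higher in SS64 NC (6.24%) and 933 lower (6.00%), or 12.2% in all, and 121 of them differed by over 16-fold, 49 higher and 72 lower. Arrays of 1 line correlated at 0.994 to 0.998 in SS64 NC and at 0.985 to 0.997 in SS40 NC, against 0.926 to 0.937 between the lines. The median SD of a probe set was 0.100 in SS64 NC and 0.125 in SS40 NC, and the median difference over all genes was -0.02. Arrays had median intensities of 23.39 to 23.57 in SS64 NC and 23.55 to 24.24 in SS40 NC, and having 4 arrays for each line limits the precision. One array, SS40 NC replicate 2, stood apart in the 3′/5′ ratio (log2) of the *Actb* and *Tfrc* control probe sets, a measure of RNA integrity. The *Actb* ratio was 0.813 there, against 0.116 to 0.149 in SS64 NC and 0.159 to 0.209 in the other SS40 NC arrays, and the *Tfrc* ratio was 2.47, against 0.236 to 0.508 and 0.865 to 1.27. Without this array, 991 genes were higher and 924 lower, and 1844 of the 1903 calls were shared.

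A first set of genes was near the floor in 1 line and bright in the other. With all 4 arrays of a line under 4.55 and all 4 of the other above 9 on the log2 scale, there were 26 such genes, 8 bright in SS64 and 18 bright in SS40. RefSeq promoter windows (GRCm38.p6, 300 bases that run from upstream of the start of transcription to 50 bases into the transcript) were at hand for 16 of them, 6 bright in SS64 and 10 bright in SS40. The windows of *Sox2* and *Tnnt2*, bright in SS64, and of *Prrx2* and *Ogn*, bright in SS40, are shown because they give in each line 1 window rich and 1 window poor in CpG dinucleotides, which are in capitals.
Sox2, chr3:34649745-34650044, strand +: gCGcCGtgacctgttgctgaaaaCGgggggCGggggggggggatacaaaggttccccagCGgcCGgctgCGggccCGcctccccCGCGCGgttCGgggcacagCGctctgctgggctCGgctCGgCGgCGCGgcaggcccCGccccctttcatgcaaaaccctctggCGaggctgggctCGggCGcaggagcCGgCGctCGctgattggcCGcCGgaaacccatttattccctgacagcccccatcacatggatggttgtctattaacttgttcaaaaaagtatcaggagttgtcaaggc
Tnnt2, chr1:135836084-135836383, strand +: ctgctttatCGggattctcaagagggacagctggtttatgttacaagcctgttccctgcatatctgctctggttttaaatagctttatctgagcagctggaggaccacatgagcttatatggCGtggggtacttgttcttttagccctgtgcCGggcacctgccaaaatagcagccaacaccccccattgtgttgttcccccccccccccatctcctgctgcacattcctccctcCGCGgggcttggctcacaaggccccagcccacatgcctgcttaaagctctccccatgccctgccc
Prrx2, chr2:30845117-30845416, strand +: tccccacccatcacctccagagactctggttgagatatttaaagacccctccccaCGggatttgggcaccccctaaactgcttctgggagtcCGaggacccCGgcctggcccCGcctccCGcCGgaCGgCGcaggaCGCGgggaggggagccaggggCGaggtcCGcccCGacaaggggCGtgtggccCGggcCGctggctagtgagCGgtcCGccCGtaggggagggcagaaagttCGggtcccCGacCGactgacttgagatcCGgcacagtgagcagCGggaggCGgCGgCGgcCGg
Ogn, chr13:49607765-49608064, strand +: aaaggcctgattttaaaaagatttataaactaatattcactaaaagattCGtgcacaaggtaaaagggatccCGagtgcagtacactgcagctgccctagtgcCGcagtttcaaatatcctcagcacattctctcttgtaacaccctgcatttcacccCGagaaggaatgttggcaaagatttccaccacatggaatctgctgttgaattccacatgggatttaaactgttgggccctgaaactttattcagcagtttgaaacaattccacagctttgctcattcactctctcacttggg
These windows held 27 CpG in *Sox2* and 5 in *Tnnt2*, and 28 in *Prrx2* and 4 in *Ogn*. Over the sets, the count ran from 5 to 56 (median 27.5) in the 6 windows of genes bright in SS64 and from 3 to 53 (median 11.5) in the 10 of genes bright in SS40, against a median of 7 over 27025 windows of all genes. Windows with fewer than 10 CpG made up 1 of the 6 and 4 of the 10, and 56.1% of all windows. The letters ACAAAG or ACAATG on either strand, a core that SOX proteins can bind, were found in 2 of the 6 windows (*Sox2* and *Tnnt2*) and in 0 of the 10, and in 28.8% of all windows. These are descriptions of the letters in the window and no evidence of binding or methylation.

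Genes of the X and Y chromosomes separated the lines. *Xist*, the RNA that coats the inactive X chromosome of female cells, was at 9.78, 9.82, 9.76 and 9.72 in SS64 NC, against 5.58, 6.35, 6.12 and 6.52 in SS40 NC. It was high in all 4 SS64 arrays and lower, though above the floor, in all 4 SS40 arrays, a difference of 3.63 (SE 0.17, limma adjusted p = 1.59e-08). *Eif2s3y*, a translation factor gene of the Y chromosome, was at 3.55, 3.55, 3.55 and 3.55 in SS64 NC, against 7.46, 7.74, 7.69 and 7.80 in SS40 NC. SS64 NC lay at the floor throughout and was at least 17.4-fold lower, with an adjusted p of 6.27e-11 by limma. *Uty* and *Kdm5d*, histone demethylase genes of the Y chromosome, were lower in SS64 NC, *Uty* at least 5.2-fold with SS64 NC at the floor and *Kdm5d* at -1.63 log2 units. The X-linked *Kdm6a*, *Kdm5c* and *Eif2s3x* differed by 0.54, 0.06 and -0.04 and were not called.

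Synovial sarcoma genes were shared in part. Of 24 tested, 6 were higher in SS64 NC (25.0%, against 6.24% of all genes) and 6 lower (25.0%, against 6.00%). The median difference was -0.01. *Tle1*, a corepressor and diagnostic marker of the tumor, was at 8.59, 8.67, 8.41 and 8.30 in SS64 NC, against 9.13, 8.37, 8.93 and 8.89 in SS40 NC. The difference of -0.34 (SE 0.15, limma adjusted p = 0.0995) was not called. The lines overlapped only through SS40 NC replicate 2 (8.37), the array with the high 3′/5′ ratios. The other SS40 NC arrays lay above every SS64 NC array. *Bcl2*, an inhibitor of apoptosis, was at 7.43, 7.34, 7.51 and 7.57 in SS64 NC, against 5.68, 6.06, 5.87 and 6.01 in SS40 NC, and SS64 NC was higher by 1.56 (SE 0.10, limma adjusted p = 2.6e-07).

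*Sox2*, a transcription factor of stem cells and neural progenitors, was at 10.74, 10.74, 10.74 and 10.73 in SS64 NC, against 3.55, 3.55, 3.64 and 3.55 in SS40 NC. Of the SS40 NC arrays, 3 of 4 lay at the floor and the other next to it, so that the difference of 7.17 (SE 0.06, limma adjusted p = 1.29e-13) depends on where the floor is set. The same probe set measured 8.73 to 10.55 (median 9.75) in 12 *SS18-SSX1* tumors of the series, 8.91 to 9.10 (median 8.96) in eMCs with *SS18-SSX1* and 4.93 to 5.38 (median 5.13) in eMCs with the empty vector. SS40 NC thus lay below each of these groups and SS64 NC above the tumor median. *Apod*, an apolipoprotein gene that the study also followed in eMCs, was at 10.42, 10.40, 10.29 and 10.33 in SS64 NC, against 3.67, 4.81, 4.49 and 4.57 in SS40 NC, with a difference of 5.98 (SE 0.20, limma adjusted p = 1.14e-09). In the tumors it was at 9.39 to 12.23 (median 10.60). *Dlx2*, a homeobox gene, *Igf1r*, the IGF1 receptor, and *Hmga2*, a chromatin protein of embryonic cells, were higher by 1.72, 1.48 and 1.27.

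Other genes of the list went the other way. *Crabp1*, a carrier of retinoic acid in the cytoplasm, was at 4.53, 4.79, 4.03 and 4.01 in SS64 NC, against 11.86, 11.63, 11.83 and 11.86 in SS40 NC, a difference of -7.45 (SE 0.16, limma adjusted p = 4.2e-11), or 175-fold. The tumors lay between the lines at 6.56 to 9.42 (median 7.92). *Zic2*, a zinc finger gene of the neural plate, and *Pdgfra*, a PDGF receptor of mesenchymal cells, were lower in SS64 NC, at -2.90 and -2.37. *Eya4*, a transcriptional coactivator, was lower, at -1.55. *Igf2*, a growth factor of the embryo, was lower at -1.03, a call lost without SS64 NC replicate 3 (-0.92), SS40 NC replicate 2 (-0.93) or SS40 NC replicate 4 (-0.98).

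**Figure D1:**
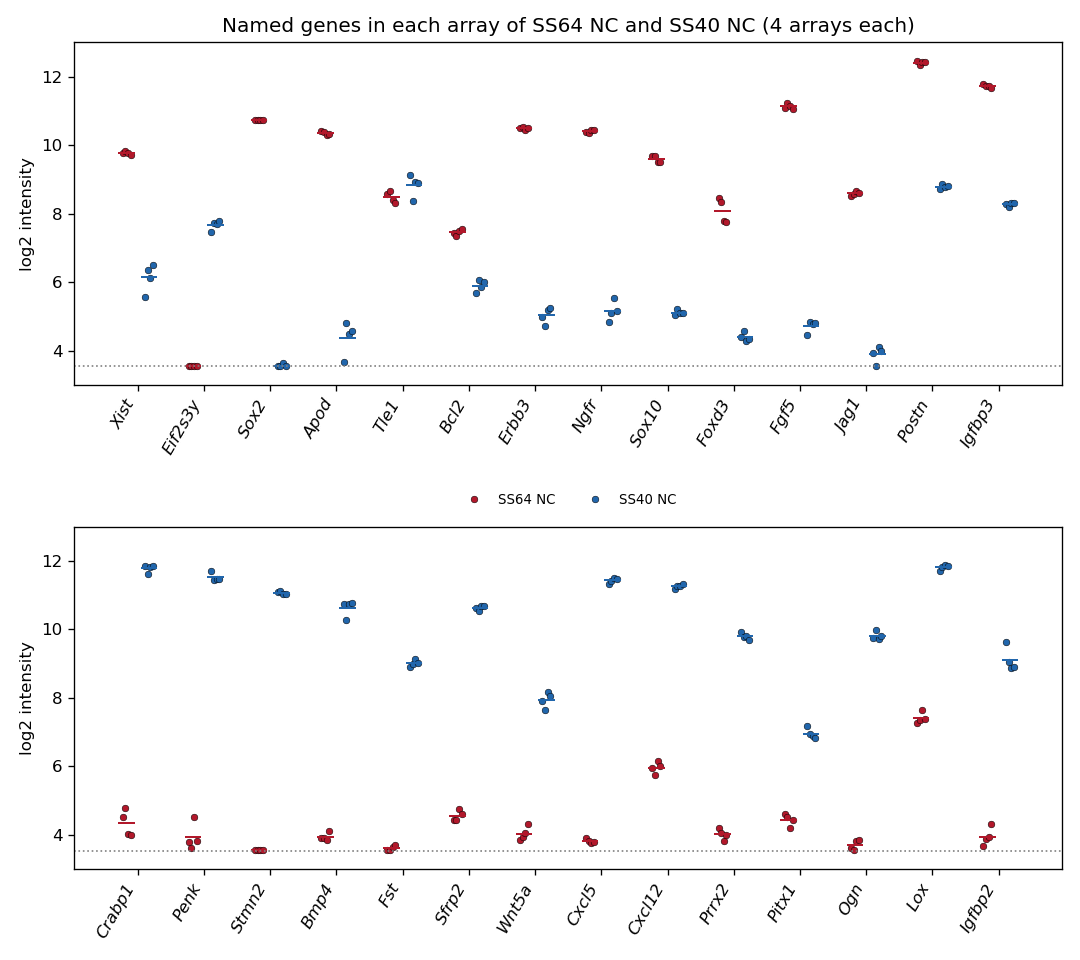
Log2 intensity of 28 named genes in each array of SS64 NC (red, left in each pair) and SS40 NC (blue), with short lines at the means and a dotted line at the floor of 3.55. Most genes formed a separate cluster in each line, whereas the arrays of *Tle1* overlapped through SS40 NC replicate 2.

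Schwann cell and neural crest genes were called in 1 direction, higher in SS64. The neural crest gives rise to the glia of peripheral nerves, among other cells. Of 10 genes tested, 6 were higher and 0 lower, and the median difference was 2.48, against -0.02 over all genes. *Erbb3*, the neuregulin receptor of Schwann cells, was at 10.49, 10.54, 10.45 and 10.49 in SS64 NC, against 4.98, 4.73, 5.18 and 5.26 in SS40 NC, a difference of 5.45 (SE 0.11, limma adjusted p = 2.16e-11). *Ngfr*, the p75 neurotrophin receptor, was at 10.39, 10.35, 10.44 and 10.44 in SS64 NC, against 4.83, 5.11, 5.53 and 5.17 in SS40 NC, a difference of 5.24 (SE 0.12, limma adjusted p = 9.15e-11). *Sox10*, the transcription factor that specifies glia of the crest, was at 9.68, 9.70, 9.50 and 9.52 in SS64 NC, against 5.04, 5.21, 5.10 and 5.10 in SS40 NC, and the difference was 4.49 (SE 0.08, limma adjusted p = 7.72e-12). The lines did not overlap in these genes, but they were named for their large differences, *Erbb3* and *Ngfr* also for not overlapping. In bulk RNA, fewer cells that express a gene and less RNA of it per cell cannot be told apart.

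*Tfap2a* and *Foxd3*, early factors of the crest, were higher by 4.05 and 3.67 (limma adjusted p = 2.64e-10 and 1.12e-08), and *Fabp7*, a fatty acid carrier of glia, by 1.30 at a low level. Genes of mature Schwann cells were low in both lines. *S100b* was at 4.27 ± 0.18 in SS64 NC and 4.29 ± 0.15 in SS40 NC and *Mbp*, a myelin protein gene, at 4.28 ± 0.12 in SS64 NC and 4.39 ± 0.15 in SS40 NC (SD, n = 4 arrays), and neither was called. In the tumors *Ngfr* was at 8.93 to 10.69 (median 10.19), near SS64 NC, whereas *Sox10* was at 4.72 to 5.63 (median 5.01) and *Erbb3* at 6.70 to 7.85 (median 7.03). In eMCs with *SS18-SSX1* they were at 7.09 to 7.29 (median 7.22) and 9.01 to 9.19 (median 9.05). SS64 NC was thus above the tumors in *Sox10* and *Erbb3*. *Cadm4*, a cell adhesion gene of myelinating glia, and *Megf10*, an engulfment receptor of astrocytes, were also among the 15 largest rises, at 5.59 and 6.56. Neuronal genes gave 0 higher and 3 lower of 21 (median 0.01). Of these, *Stmn2*, a microtubule regulator of neurons, was at 3.55, 3.55, 3.55 and 3.55 in SS64 NC, against 11.10, 11.11, 11.03 and 11.04 in SS40 NC, so that SS64 NC was at least 183-fold lower (limma adjusted p = 9.7e-14), and *Gap43* and *Tubb3* were lower, at -1.94 and -1.05, *Tubb3* falling short of 2-fold without SS40 NC replicate 3 (-0.97).

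Transcription factors of limb and body wall mesenchyme were lower in SS64 more often than higher. Of 43 tested, 16 were lower and 1 higher, with a median difference of -0.44. *Prrx2*, a homeobox gene of mesenchyme, was at 4.20, 4.06, 3.82 and 4.01 in SS64 NC, against 9.92, 9.77, 9.80 and 9.70 in SS40 NC, a difference of -5.78 (SE 0.09, limma adjusted p = 6.03e-12), or 54.8-fold. *Osr1*, a zinc finger gene of connective tissue precursors, and *Emx2*, a homeobox gene of the shoulder blade and urogenital ridge, were lower, at -4.06 and -3.30 (limma adjusted p = 5.17e-08 and 5.09e-10). *Twist1*, a basic helix-loop-helix factor of limb mesenchyme, was at 5.75, 5.36, 5.62 and 5.60 in SS64 NC, against 8.80, 8.60, 8.61 and 8.56 in SS40 NC, a difference of -3.06 (SE 0.10, limma adjusted p = 7.3e-10). *Foxf1*, *Foxc1*, *Msx1* and *Prrx1* were lower, at -3.26, -2.95, -2.64 and -2.21. *Lhx9*, a LIM homeobox gene, was the single member that was higher, at 2.07, though another of its probe sets was at 0.25.

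Genes that mark the fore- and hindlimb did not part the lines in a simple way. *Tbx5*, of the forelimb, was at 4.43 ± 0.08 in SS64 NC and 4.40 ± 0.17 in SS40 NC and *Tbx4*, of the hindlimb, at 3.98 ± 0.06 in SS64 NC and 4.11 ± 0.18 in SS40 NC (SD, n = 4 arrays), low in both lines and not called. *Pitx1*, a hindlimb factor upstream of *Tbx4*, was at 4.62, 4.54, 4.20 and 4.43 in SS64 NC, against 7.17, 6.96, 6.88 and 6.82 in SS40 NC, lower in SS64 NC, at -2.51 (SE 0.12, limma adjusted p = 1.77e-08). It was at 7.06 to 9.35 (median 8.15) in the tumors and at 4.71 to 4.90 (median 4.81) in eMCs with *SS18-SSX1*.

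HOX genes, whose order along 4 clusters mirrors position along the body and limb axes, differed by cluster. In the A, B and C clusters no gene was called higher in SS64 NC and 2, 3 and 3 were lower, of 9, 9 and 6 tested. In the D cluster 3 were higher and 0 lower, of 7. *Hoxa10* was at 4.72, 4.90, 4.59 and 4.46 in SS64 NC, against 8.61, 8.65, 8.57 and 8.53 in SS40 NC, a difference of -3.92 (SE 0.10, limma adjusted p = 1.35e-10). *Hoxc8* was at 3.79, 4.06, 3.69 and 4.00 in SS64 NC, against 7.90, 7.72, 7.82 and 7.83 in SS40 NC, a difference of -3.94 (SE 0.10, limma adjusted p = 1.58e-10), and *Hoxc10* was lower, at -3.29. In both *Hoxa10* and *Hoxc8* the SS64 NC arrays were low and no array of one line reached those of the other. Both were named with their differences known. In the D cluster, *Hoxd8* was at 8.21, 8.17, 8.35 and 8.39 in SS64 NC, against 5.71, 5.56, 5.71 and 5.88 in SS40 NC, a difference of 2.57 (SE 0.09, limma adjusted p = 1.51e-09), while *Hoxd9* and *Hoxd13* were higher by 1.87 and 2.12 (SE 0.18, limma adjusted p = 2.27e-06). *Hoxa11*, *Hoxb9*, *Hoxb3*, *Hoxb6* and *Hoxc13* were lower, at -1.19, -1.91, -1.53, -1.19 and -1.21. *Hoxa3*, *Hoxb2*, *Hoxb4* and *Hoxc4* differed by 0.07, 0.41, 0.31 and -0.10 and were not called.

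**Figure D2:**
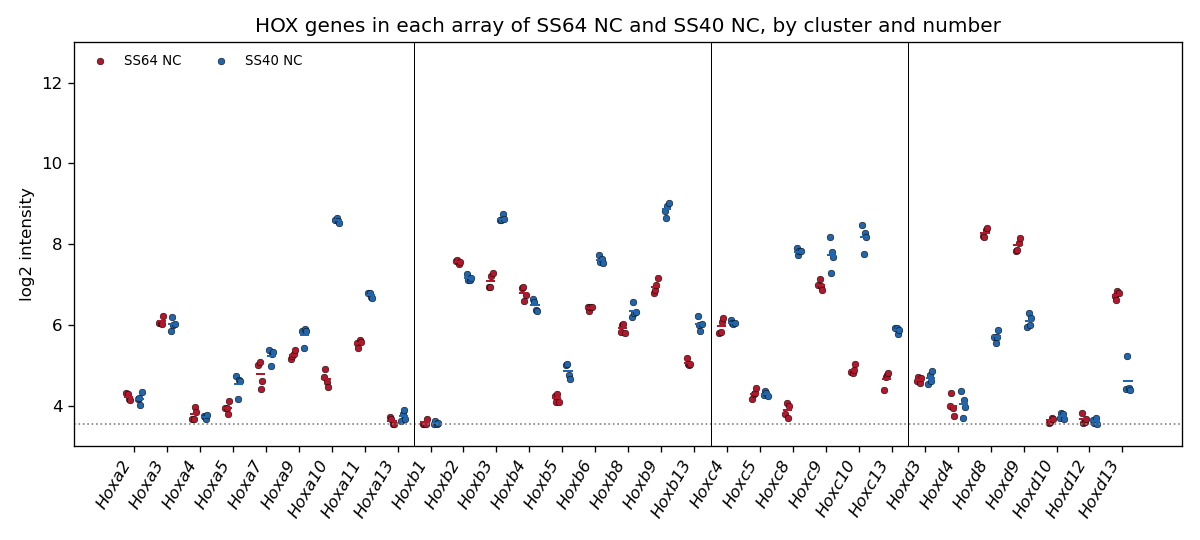
Log2 intensity of the HOX genes tested in each array of SS64 NC (red, left in each pair) and SS40 NC (blue), grouped by cluster from A to D, with the floor as a dotted line. *Hoxa10*, *Hoxc8* and *Hoxc10* stood out in SS40 NC, and *Hoxd8*, *Hoxd9* and *Hoxd13* in SS64 NC.

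Genes of the BMP and Wnt pathways were lower in SS64 more often than higher. Bone morphogenetic proteins (BMPs) and TGF-beta are secreted factors that pattern mesenchyme and are held in check by secreted antagonists. Of 33 genes of this group, 3 were higher and 13 lower, with a median difference of -0.51. Among the ligands, *Bmp4* was at 3.91, 3.91, 3.86 and 4.11 in SS64 NC, against 10.73, 10.28, 10.74 and 10.78 in SS40 NC, a difference of -6.68 (SE 0.12, limma adjusted p = 9.67e-12), or 103-fold, and *Bmp2* was lower, at -3.23 (SE 0.17, limma adjusted p = 5.24e-08). Among the antagonists, *Fst*, which binds activin, *Bmper* and *Grem1* were lower, at -5.40, -4.88 and -2.25. The general BMP targets *Id1*, *Id2* and *Id3* differed by -0.17, -0.14 and -0.30 and were not called, whereas *Id4* was at 9.17, 9.17, 9.24 and 9.28 in SS64 NC, against 3.76, 4.19, 4.09 and 3.95 in SS40 NC, higher by 5.22 (SE 0.10, limma adjusted p = 1.66e-11).

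Beside 6.24% of all genes higher and 6.00% lower, Wnt ligands, receptors and antagonists gave 3 higher (8.33%) and 12 lower (33.3%) of 36. The median difference was -0.48. Those lower included the ligands *Wnt5a* (-3.91), *Wnt10a* (-3.84) and *Wnt4* (-3.69), and *Ror2*, a receptor for *Wnt5a* (-3.81). A pair of antagonists of the secreted frizzled-related family went opposite ways. *Sfrp2* was at 4.44, 4.43, 4.75 and 4.62 in SS64 NC, against 10.62, 10.55, 10.68 and 10.67 in SS40 NC, lower, at -6.07 (SE 0.08, limma adjusted p = 2.12e-12), whereas *Sfrp1* was at 7.66 ± 0.12 in SS64 NC and 4.64 ± 0.20 in SS40 NC (SD, n = 4 arrays), higher by 3.02 (SE 0.11, limma adjusted p = 3.1e-09). Wnt target genes gave 3 higher (18.8%) and 1 lower (6.25%, near the 6.00% of all genes) of 16 (median -0.23). *Nkd2* and *Ccnd1* were higher by 4.89 and 1.15, and *Axin2* was the member that was lower, at -1.44.

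Of 18 FGF ligands and receptors, 1 was higher (5.56%, against 6.24% of all genes) and 3 were lower (16.7%, against 6.00%), with a median of -0.05. *Fgf5*, a secreted mitogen, was at 11.10, 11.24, 11.15 and 11.07 in SS64 NC, against 4.46, 4.85, 4.78 and 4.80 in SS40 NC, a difference of 6.42 (SE 0.09, limma adjusted p = 2.5e-12). *Fgf7*, a mesenchymal factor that acts on epithelium, and *Fgf13*, an intracellular member of the family, were lower, at -5.14 and -5.44 (limma adjusted p = 2.79e-09 and 2.56e-12). The receptor *Fgfr1* was lower, at -2.40. In the tumors *Fgf5* was at 3.55 to 3.66 (median 3.55), far below SS64 NC. In eMCs it was at 8.84 to 8.96 (median 8.92) with *SS18-SSX1* and 4.87 to 5.39 (median 5.22) with the empty vector. Genes that are induced by ERK and feed back on it were higher in SS64 NC in 8 of 17 cases and lower in 1 (median 0.72). *Dusp6*, an ERK phosphatase, was at 10.56, 10.54, 10.57 and 10.57 in SS64 NC, against 7.77, 8.07, 7.86 and 8.01 in SS40 NC, a difference of 2.64 (SE 0.07, limma adjusted p = 1.51e-10), and *Etv1*, *Etv5* and *Phlda1* were higher by 2.42, 2.04 and 2.18. *Spry1* was the member that was lower, at -1.07.

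In the Notch pathway, 5 of 17 genes were higher and 1 lower (median 0.12). The ligand *Jag1* was at 8.53, 8.59, 8.66 and 8.62 in SS64 NC, against 3.94, 3.55, 4.10 and 3.99 in SS40 NC, a difference of 4.71 (SE 0.12, limma adjusted p = 1.12e-10). The receptor *Notch1* and the target *Hes1* were higher by 2.56 and 2.08 (limma adjusted p = 6.31e-08 and 5.93e-10). Among the growth factors and their receptors, 6 were higher and 10 lower of 29 (median -0.08). *Pdgfb* and *Nrp2*, a coreceptor of VEGF and semaphorins, were higher by 3.13 and 3.17. The related heparin-binding factors *Ptn* and *Mdk* were lower, at -4.69 and -4.51, and *Pdgfd*, at the floor in SS64 NC, was at least 21.1-fold lower.

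The IGF axis is active in synovial sarcoma, and both lines carried parts of it. Of 17 genes, 4 were higher and 4 lower (median -0.06). *Igfbp3*, the main IGF carrier of serum, was at 11.78, 11.73, 11.74 and 11.68 in SS64 NC, against 8.29, 8.21, 8.30 and 8.31 in SS40 NC, a difference of 3.46 (SE 0.04, limma adjusted p = 1.39e-12), while *Igfbp2* was at 3.67, 3.89, 3.94 and 4.31 in SS64 NC, against 9.63, 9.05, 8.87 and 8.89 in SS40 NC, a difference of -5.16 (SE 0.18, limma adjusted p = 1.86e-09). *Igfbp2* was thus near the floor in SS64 NC, whereas *Igfbp3* was well above it in both lines. The ligand *Igf1* and *Pappa*, a protease that frees IGF, were higher by 1.79 and 3.40, and *Igf2bp3*, an RNA-binding protein, was lower, at -4.29. Among 21 imprinted genes, which are read from 1 parental copy, 4 were higher and 7 lower (median -0.01). *Sgce* was higher by 2.52, whereas *Cdkn1c*, a CDK inhibitor, and *Grb10*, an inhibitor of growth factor receptors, were lower, at -3.23 and -2.70 (limma adjusted p = 2.65e-06 and 4.45e-12).

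Chemokines and cytokines were more often lower than higher in SS64. Of 29 tested, 1 was higher, 12 were lower and 16 were not called, with a median difference of -0.28. *Cxcl5*, which attracts neutrophils, was at 3.92, 3.82, 3.76 and 3.81 in SS64 NC, against 11.32, 11.42, 11.51 and 11.48 in SS40 NC, a difference of -7.61 (SE 0.07, limma adjusted p = 1.6e-13), or 195-fold. *Cxcl12*, which retains blood stem cells in bone marrow, was at 5.96, 5.74, 6.15 and 6.01 in SS64 NC, against 11.17, 11.26, 11.26 and 11.33 in SS40 NC, a difference of -5.29 (SE 0.08, limma adjusted p = 5.59e-12). *Cxcl1* was lower, at -4.45, *Tnfsf11*, the RANK ligand, was at the floor in SS64 NC and at least 14.2-fold lower, and *Kitl*, the ligand of KIT, was higher by 1.07. *Cxcl15*, which the study followed in tumors with *miR-214*, was at 4.30 ± 0.07 in SS64 NC and 4.16 ± 0.17 in SS40 NC (SD, n = 4 arrays) and was not called. In the tumors *Cxcl12* was at 10.88 to 11.70 (median 11.47), as in SS40 NC, and *Cxcl5* at 3.55 to 4.09 (median 3.55), near the floor as in SS64 NC. In eMCs *Cxcl5* was high, at 9.08 to 9.20 (median 9.14) with *SS18-SSX1* and 9.60 to 9.71 (median 9.70) with the empty vector. Genes of antigen presentation gave 0 higher and 4 lower of 15 (median -0.21), with *Psmb8*, an immunoproteasome subunit, and *Tapbp*, the tapasin that loads peptides, lower, at -2.29 and -2.26.

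The matrix differed in kind. Of 29 fibroblast matrix genes, 5 were higher and 9 lower (median 0.07). *Postn*, a matricellular protein of periosteum, was at 12.45, 12.33, 12.42 and 12.44 in SS64 NC, against 8.71, 8.86, 8.78 and 8.82 in SS40 NC, a difference of 3.62 (SE 0.05, limma adjusted p = 1.39e-12), and *Col6a3* and *Col6a1*, chains of collagen VI, were higher by 2.20 and 1.48. *Ogn*, a small leucine-rich proteoglycan, was at 3.61, 3.55, 3.83 and 3.87 in SS64 NC, against 9.74, 9.99, 9.72 and 9.82 in SS40 NC, a difference of -6.10 (SE 0.10, limma adjusted p = 6.03e-12), and the collagen cross-linking enzymes *Lox* and *Loxl1* were lower, at -4.40 and -4.48 (limma adjusted p = 1.29e-11 and 1.42e-11). Basement membrane genes gave 5 higher and 2 lower of 14 (median 0.26), with *Agrn*, *Col4a1* and *Nid1* higher by 3.26, 2.22 and 2.04 and *Col4a5* lower, at -2.81.

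Integrins and cadherins, which hold cells to matrix and to each other, gave 10 higher and 4 lower of 30 (median 0.36). *L1cam*, an adhesion molecule of axons and Schwann cells, and the laminin receptors *Itga7* and *Itga6* were higher by 4.46, 3.41 and 2.32, whereas *Cdh11*, the cadherin of mesenchyme, and *Pcdh19* were lower, at -4.42 and -4.82. Metalloproteinases and inhibitors gave 7 higher and 4 lower of 27 (median 0.32), such as *Adamts4*, an aggrecanase, and *Mmp2*, a gelatinase, higher by 3.84 and 2.00. Guidance genes gave 8 higher and 9 lower of 34 (median -0.01), with *Epha7*, *Plxnd1* and *Sema3b* higher by 5.39, 4.23 and 3.98 and *Efna5*, *Efna1* and *Sema3a* lower, at -3.17, -3.11 and -2.69.

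Cholesterol synthesis genes were called in 1 direction, with 6 higher and 0 lower of 14 and a median of 0.95. *Dhcr7*, *Insig1* and *Fdps*, which are regulated by SREBP2, were higher by 1.76, 1.65 and 1.49 (limma adjusted p = 1.75e-07, 1.41e-08 and 3.32e-06), and *Srebf2*, which encodes SREBP2, by 1.09. Target genes of YAP and TAZ gave 1 higher and 7 lower of 17 (median -0.33). *Ankrd1* was lower, at -5.27, but the common targets *Ccn1* and *Ccn2* differed by -0.50 and -0.16 and were not called. Retinoic acid genes gave 2 higher and 4 lower of 16 (median -0.33), with *Aldh1a3*, an enzyme that makes retinoic acid, higher by 3.34 and the carriers *Crabp1* and *Crabp2* lower, at -7.45 and -5.48. Genes of the NRF2 response, glutathione and metallothioneins gave 1 higher and 6 lower of 21 (median -0.09), *Gsta4* falling by most, at -3.54.

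Chromatin regulators and cell cycle genes were next compared, beside the 12.2% of all genes that were called. Of 24 SWI/SNF subunits, 2 were higher and 2 lower (median 0.03). *Smarca4*, *Ss18* and *Arid1b* had no probe set with 1 symbol and were not tested. *Smarca2*, 1 of the ATPases of the complex, was at 5.57, 4.97, 5.53 and 5.67 in SS64 NC, against 7.96, 8.16, 8.06 and 8.08 in SS40 NC, a difference of -2.63 (SE 0.14, limma adjusted p = 5.24e-08), and *Brd7* was lower, at -1.13, while *Bcl7a* and *Smarcd3* were higher by 1.77 and 1.06. *Smarcb1*, the subunit that the fusion displaces, was at 8.84 ± 0.04 in SS64 NC and 8.65 ± 0.05 in SS40 NC (SD, n = 4 arrays) and was not called. Of 10 genes of the DNA methylation machinery, 2 were higher and 0 lower (median 0.15). No Polycomb subunit was called of 28 (median -0.06), and no cell cycle gene of 39 (median -0.14). *Mki67*, the proliferation antigen, was at 10.29 ± 0.01 in SS64 NC and 9.49 ± 0.09 in SS40 NC (SD, n = 4 arrays), a difference of 0.80 with a limma adjusted p of 2.11e-07 that stayed under 2-fold. Among the D cyclins, CDK inhibitors and pocket proteins, 4 were higher and 2 lower of 15 (median 0.09). *Rb1*, the retinoblastoma gene, was at 8.34, 8.39, 8.41 and 8.36 in SS64 NC, against 6.16, 6.39, 6.08 and 6.26 in SS40 NC, higher by 2.15 (SE 0.08, limma adjusted p = 2.48e-09), and *Ccnd1* and *Cdkn1a* by 1.15 and 1.23.

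The lists of macrophage, granulocyte and mast cell, and endothelial markers were low in both lines, with medians of 4.12 to 4.47 over the SS64 NC arrays and 4.19 to 4.62 over the SS40 NC arrays. None of 13 macrophage and 15 granulocyte and mast cell markers was called, and of 15 endothelial markers only *Kdr* was, at -1.04, a call lost without SS64 NC replicate 1 or 2 (both just short of 2-fold) or SS40 NC replicate 1 (-0.98) or 3 (-0.96). *Ptprc*, *Pecam1* and *Cdh5* were at 4.04 in SS64 NC and 3.80 in SS40 NC, 3.70 in SS64 NC and 3.79 in SS40 NC, and 3.92 in SS64 NC and 3.81 in SS40 NC, close to the floor. Of 8 red cell and platelet markers, 0 were higher and 1 was lower, and 3 had a mean above 6 on the log2 scale in at least 1 line. Epithelial genes, of interest because of the biphasic form, gave 0 higher and 4 lower of 30 (median -0.05). *Krt19* was at 3.87, 3.79, 3.55 and 3.69 in SS64 NC, against 6.37, 6.34, 6.49 and 6.58 in SS40 NC, lower, at -2.72 (SE 0.10, limma adjusted p = 2.27e-09), and *Cldn1* and *Spint2* were lower, at -2.61 and -1.78. *Krt8*, *Krt18* and *Epcam* differed by 0.08, -0.71 and 0.60 and were not called, with means of 6.41 in SS64 NC and 5.82 in SS40 NC for *Epcam*. Skeletal muscle genes gave 1 higher and 0 lower of 29 (median 0.03), *Tnnt2*, troponin T of heart muscle, being at 10.49, 10.39, 10.40 and 10.40 in SS64 NC, against 4.53, 4.22, 4.11 and 4.00 in SS40 NC, a difference of 6.21 (SE 0.11, limma adjusted p = 8.54e-12). *Myod1*, a factor that specifies muscle, differed by 0.14 and was not called.

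**Figure D3:**
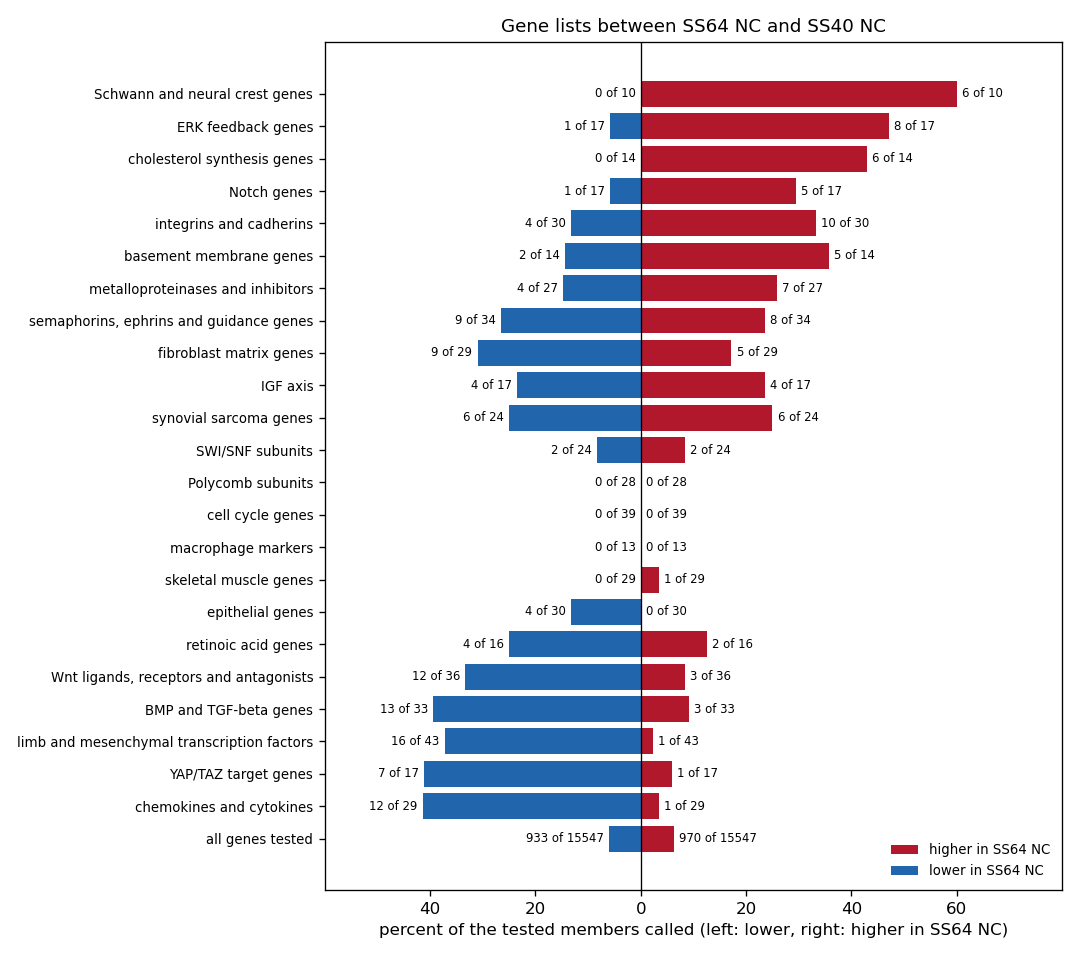
Percent of the tested genes of each list called higher in SS64 NC (red, right) or lower (blue, left), with the counts beside the bars and all 15547 genes at the bottom. Schwann and neural crest genes reached 6 of 10 higher and 0 lower, and limb and mesenchymal transcription factors 1 of 43 higher and 16 lower.

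Further genes differed strongly. Rises in SS64 NC over 5 log2 units also included *Moxd1*, a copper-dependent oxygenase gene of the crest (6.76), *Tafa5*, a secreted neurokine (6.49), *Slc35f1* (6.32), *Klhl30* (5.41) and *Nppb*, the B-type natriuretic peptide (5.26). *Slc35f1* was at the floor in all 4 SS40 NC arrays and was at least 79.6-fold higher in SS64 NC (limma adjusted p = 1.05e-12). Falls over 6 log2 units included *Penk*, proenkephalin, at 3.79, 3.63, 4.52 and 3.82 in SS64 NC, against 11.69, 11.44, 11.47 and 11.46 in SS40 NC, a difference of -7.57 (SE 0.17, limma adjusted p = 5.04e-11). *Cd24a*, a surface glycoprotein of progenitors, *Ndnf*, a secreted neurotrophic factor, *Ptx3*, a soluble pattern recognition molecule, *Msln*, mesothelin, *Efemp1*, a fibulin, and *Gnai1*, a G protein subunit, were lower, at -7.04, -6.76, -6.50, -6.27, -6.24 and -6.16. *Car3*, carbonic anhydrase III, was lower, at -5.96.

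Different probe sets of a gene did not always give the same size. Of 87 called genes named here with more than 1 tested probe set, 47 differed by over 2-fold in every one and 40 had a probe set under 2-fold. The second *Msx1* probe set, of similar brightness, was at -0.25, and it became the brighter and the difference -0.26 or -0.30 without SS40 NC replicate 3 or 4. Another probe set of *Bcl2* was at 0.24, of *Erbb3* at 0.04, of *Sox10* at 0.43 and of *Cxcl12* at -0.15. The same held for *Smarca2* (-0.28), *Hoxd13* (0.18), *L1cam* (0.16), *Agrn* (0.25), *Aldh1a3* (0.41), *Nkd2* (0.41), *Car3* (-0.05) and *Fgf13* (-0.32), among others. In 7 of these genes another probe set had the opposite sign, at 0.00 for *Axin2*, -0.09 for *Bcl7a*, 0.09 for *Car12*, 0.16 for *Efna5*, 0.08 for *Kdm5d*, 0.05 for *Ptn* and -0.01 for *Sgce*. The value given for each gene is that of its brightest probe set.

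A list of candidate *miR-214* targets named by the study also held the *Dnm3* locus and the Twist genes. Of its 14 genes tested, 0 were higher and 2 lower, *Twist1* as above and *Twist2* at -1.83, neither of which is one of those targets. None of the candidate targets was called. The study chose these targets in part on arrays of these lines, so this count is no independent evidence. *Timp2*, an inhibitor of metalloproteinases, was at 10.97, 10.98, 10.91 and 11.01 in SS64 NC, against 11.92, 11.98, 11.95 and 11.92 in SS40 NC. It did not overlap between the lines, and its difference of -0.98 (SE 0.03, limma adjusted p = 1.95e-09) stayed just under 2-fold. *Dnm3os*, the host RNA of *miR-214*, differed by -0.66 and was not called. Its mean was low in both lines, 4.32 in SS64 NC and 4.98 in SS40 NC, against 6.86 to 10.07 (median 7.86) in the tumors.

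The same lines were also measured with *miR-214*, in 8 arrays that played no part in the calls. These arrays were first compared for genes of the other line. Over the 15 genes with the largest rise in SS64 NC, the median level in SS40 was 4.20, 4.11, 4.99 and 5.04 in *miR-214* replicates 1 to 4, against 4.10 to 4.40 in SS40 NC. Over the 15 with the largest fall, the median in SS64 was 3.91, 3.76, 5.01 and 6.54, against 3.83 to 4.01 in SS64 NC. *Penk* was at 3.73, 3.76, 7.55 and 9.02 and *Crabp1* at 4.24, 4.37, 7.58 and 9.05 in SS64 *miR-214*, and *Sox2* at 3.85, 3.74, 4.99 and 5.04 in SS40 *miR-214*. Replicates 3 and 4 of both lines thus held more RNA of genes of the other line than replicates 1 and 2. The cause was not tested, and values are given with and without these arrays. The NC arrays showed no such split, although *Apod* ran from 3.67 to 4.81 in SS40 NC. These genes were chosen for their separation between the same NC arrays. Their levels there therefore cannot show whether those arrays held RNA of the other line.

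In all 1902 genes called between the NC arrays that were also tested here, the difference with *miR-214* had the same sign, with all arrays and with replicates 1 and 2 alone. Between SS64 *miR-214* and SS40 *miR-214*, 1750 of 15560 genes were called (11.2%), and 1808 of 15559 (11.6%) with replicates 1 and 2. Of the 1902 genes, 1538 passed both thresholds in the same direction with all arrays and 1586 with replicates 1 and 2. The median size of the difference was 1.61 between the NC arrays, 1.49 between all *miR-214* arrays and 1.55 between replicates 1 and 2. *Sox2* differed by 6.34 with all *miR-214* arrays and by 7.03 with replicates 1 and 2, *Erbb3* by 5.55 and 5.94, *Bmp4* by -4.99 and -6.18, *Cxcl5* by -5.83 and -6.96, *Hoxd8* by 2.43 and 2.49 and *Prrx2* by -5.31 and -5.81. Across all 16 arrays, the difference between the lines changed with *miR-214* by over 2-fold at a limma adjusted p under 0.05 in 61 of 38999 probe sets, and in 57 of 39495 without replicates 3 and 4.

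**Figure D4:**
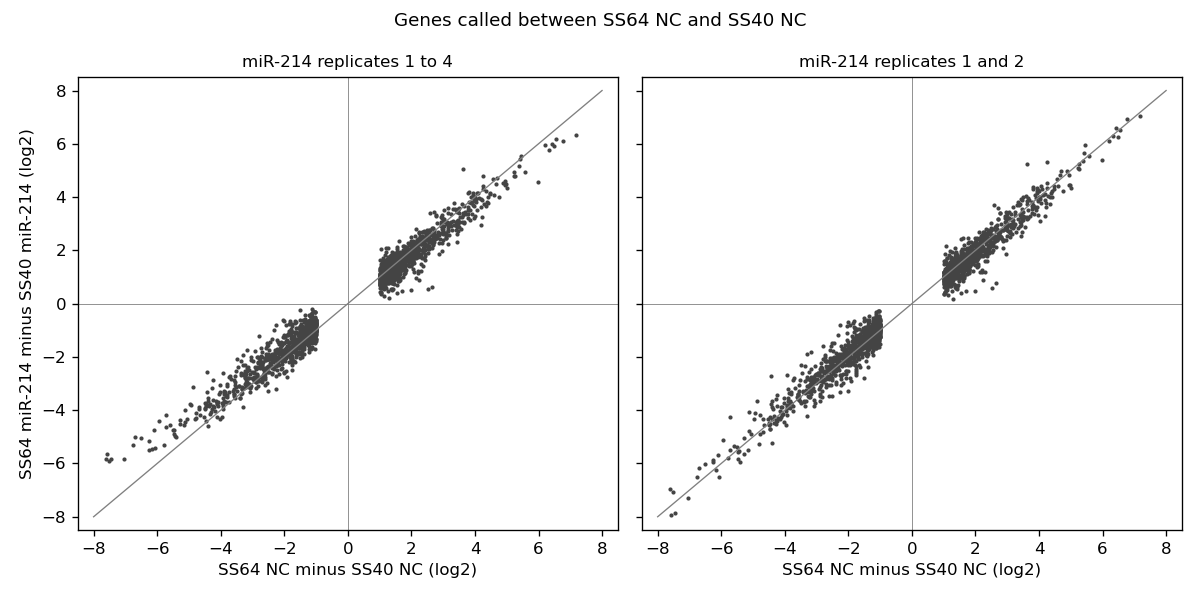
Each point is a gene called between SS64 NC and SS40 NC, with its log2 difference between the NC arrays on the x axis and between the *miR-214* arrays on the y axis, for all 4 replicates (left) and for replicates 1 and 2 (right). All points lay in the quadrants of equal sign, and the largest falls lay closer to the line of equality with replicates 1 and 2.

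The differences had a common sign along several chromosomes. They were described over 4227 genes with a mean log2 intensity above 8 and a known position, whose median difference was -0.07 and of which 308 were higher (7.29%) and 209 lower (4.94%). On chromosome 7 the median of 231 genes was 0.39, 85.7% of them were above 0, and 45 were called higher and 0 lower. The median for each single array of a line against the mean of the other line ran from 0.37 to 0.44. Chromosomes 1, 12 and 10 had medians of 0.33, 0.32 and 0.29, with 81.2%, 73.5% and 77.8% of their genes above 0.

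On chromosome 8 the median of 238 genes was -0.43, 18.9% were above 0, and 9 were called higher and 29 lower. For single arrays it ran from -0.45 to -0.41. Chromosomes 19, 17, 2 and 5 had medians of -0.31, -0.26, -0.25 and -0.25. The shift was uneven within some chromosomes. In runs of 40 neighbouring genes, the lowest medians were -0.69 and -0.66, in the adjoining runs of chromosome 8 from *Ddx39a* to *Coq9* and from *Polr2c* to *Kars*, where 2 of 40 genes each were above 0. A pair of adjoining runs of chromosome 17, the first starting at *Hnrnpm* and the next ending at *Trip10*, were at -0.50 and -0.51. The highest were 0.57 on chromosome 10, in the run that ends at *Kitl*, and 0.51 on chromosome 7, from *Uvrag* to *Itpripl2*, with 36 of 40 genes above 0 in each.

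The *miR-214* arrays gave medians of 0.42 on chromosome 7 and -0.40 on chromosome 8. Set against eMCs with the empty vector, a control that both of the next comparisons share, SS64 NC was at 0.29 and SS40 NC at -0.18 on chromosome 7, and at 0.16 and 0.54 on chromosome 8, where the medians over all 4227 genes were 0.23 and 0.26. Over all chromosomes these medians ran from 0.07 to 0.34 for SS64 NC and from -0.18 to 0.58 for SS40 NC. The cause of these shifts was not tested.

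**Figure D5:**
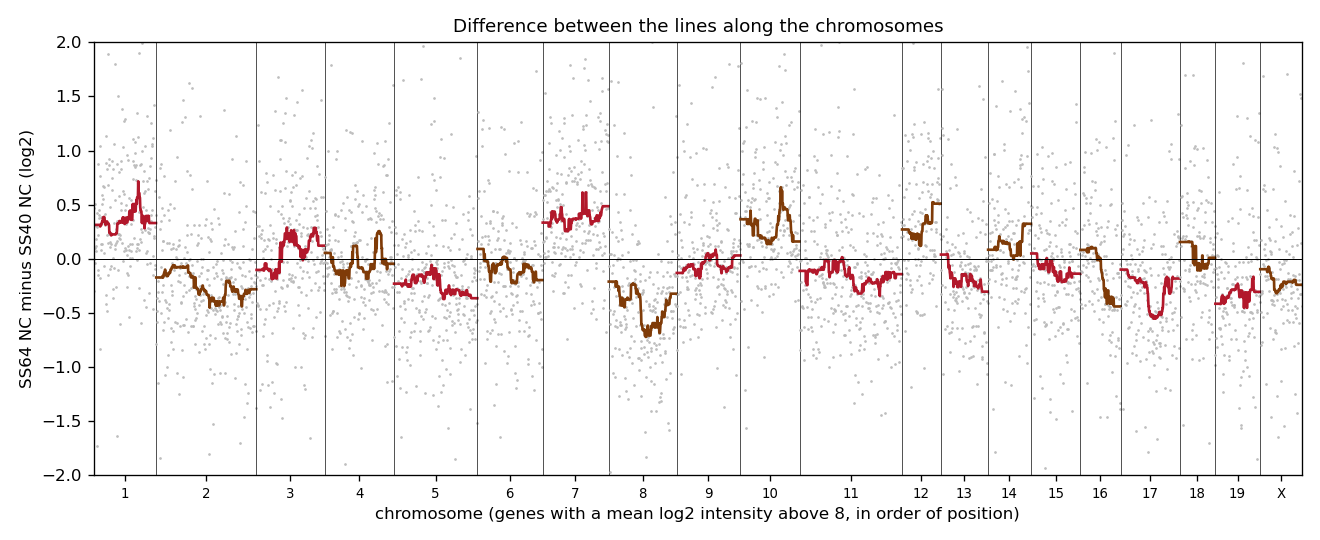
Difference between SS64 NC and SS40 NC (log2) for 4227 genes in order of position on chromosomes 1 to 19 and X, with single genes as grey points (those beyond 2 units not shown) and the running median of 41 genes as coloured lines. The line lay above 0 along chromosome 7 and reached its lowest level in the middle of chromosome 8.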

How the data were processed

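RNA of 53 samples was hybridized to Affymetrix mouse arrays with perfect-match probe sets. The authors deposited a table of linear intensity per probe set and array, made with MAS5 according to the submitters' processing notes; its version and background correction are not given in the sources used here. Of 45141 probe sets, 104 controls were left out. A probe set with 1 gene symbol (28898, giving 17097 genes) took that name, updated by gene ID. Intensities under 11.7, the 20th percentile, were raised to it before log2. Probe sets that exceeded the floor in 4 or more of the 8 arrays were tested with limma 3.58.1 (lmFit and eBayes, R 4.3.3) without a block, and Benjamini-Hochberg adjustment ran over all 37534 tested probe sets. Calls needed an adjusted p under 0.05 and a difference over 2-fold, the fold used by the study. The genes named are the 15 largest differences in each direction whose arrays did not overlap (clone and predicted-gene names left out), up to 3 called members of a list with the largest change, members that define a list and genes the study discussed; further names were chosen after their values were seen. Members and lists were chosen with earlier results of these data known. The *miR-214* arrays were fitted likewise. The steps were tested on simulated data. Python 3.11.15, pandas 2.3.3, numpy 2.4.6 and matplotlib 3.10.9 were used.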

Additional observations from a re-analysis of the deposited data

Results flagged for a closer look

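In each group of 4 arrays, the highest or lowest array was compared with its nearest neighbour relative to the range of the group (Dixon's criterion). Over 406 groups, 2 for each gene named, 22 arrays stood apart, and chance singles out about 1 in 20 groups. SS40 NC replicate 2 accounted for 9 of the 22, more than any other array. It was lower than the other SS40 NC arrays in *Actb* (12.27), *Bmp4* (10.28), *Crabp1* (11.63), *Igf2bp3* (7.43), *Plxnd1* (6.04) and *Col4a1* (8.58) and higher in *Hoxd13* (5.24), *Myod1* (5.28) and *Epcam* (6.21), all on the log2 scale. It is the array with the high 3′ to 5′ ratios of *Actb* and *Tfrc*, and the part of this in the values was not tested. SS40 NC replicate 1 stood apart in *Penk* (11.69), *Prrx1* (10.81), *Id1* (10.09) and *Hoxc4* (6.12), and SS40 NC replicate 3 in *Sox2* (3.64) and *Uvrag* (7.80).

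In SS64 NC, replicate 1 stood apart in *Tnnt2* (10.49) and *Nppb* (10.20), replicate 2 in *Bmp2* (3.63) and *Hoxb6* (6.35), replicate 3 in *Igf1* (9.31), and replicate 4 in *Osr1* (4.81) and *Hoxa3* (6.21). The gaps to the nearest array were small in most of these, as the arrays of a line were close, and for *Bmp2* and *Sox2* the other arrays lay at the floor.

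The difference between the lines changed with *miR-214* by over 2-fold in 4 of the genes named, by the interaction term of limma over all probe sets. *Car3* changed by 1.57 (adjusted p = 0.0446), *Perp* by 1.52 (adjusted p = 0.000861), *Gap43* by 1.15 (adjusted p = 0.0117) and *Fabp7* by -1.08 (adjusted p = 0.00273), as the difference with *miR-214* minus that with NC. Without *miR-214* replicates 3 and 4, which carry genes of the other line, the changes were 0.85 (adjusted p = 0.0181) for *Car3*, 1.45 (adjusted p = 0.00885) for *Perp*, 1.13 (adjusted p = 0.0205) for *Gap43* and -1.12 (adjusted p = 0.0129) for *Fabp7*, so that *Car3* no longer passed 2-fold.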

How the results depend on the processing

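The counts of called genes stayed within 1.5 times under each alternative except the removal of the fold threshold, which gave 3373 genes higher and 4121 lower in SS64 NC, and 2684 higher and 3205 lower with *miR-214*. Leaving out 1 array at a time gave 964 to 991 higher and 904 to 948 lower genes in SS64 NC, and 876 to 971 higher and 795 to 855 lower with *miR-214*. Taking the mean over the probe sets of a gene gave the lowest NC counts, 849 and 786, of which 1563 were among the 1903 calls. With the replicate number as a block, 970 and 933 genes were called between the NC arrays, and 945 and 809 between the *miR-214* arrays. The deviations of same-numbered NC arrays correlated at 0.36, -0.22, 0.13 and 0.24, so the numbers were not taken as a pairing. Leaving out *miR-214* replicates 3 and 4 was chosen after seeing the data, as was the expression limit of log2 7 in place of 8 for the chromosomes, with which chromosomes 7 and 8 had medians of 0.41 and -0.38.

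For 203 named genes, 3625 of the recomputed values kept their direction and their side of the threshold, 18 lost the call, 1 gained it and 6 changed sign. The mean over probe sets ended the calls of *Axin2* (-0.72), *Bcl2* (0.90), *Bcl7a* (0.55), *Coq9* (-0.60), *Hoxb3* (-0.87), *Kdm5d* (-0.62) and *Srebf2* (0.69), and a floor at the 40th percentile that of *Fabp7* (0.87). Genes that were not called changed sign close to 0, *Id2* with the mean over probe sets (0.018) and *S100b* with the higher floor (0.0079). Leaving out 1 array at a time gave -0.012 to 0.12 for *Kdm5c*, -0.013 to 0.12 for *Tbx5* and -0.074 to 0.056 for *S100b*. The cause of these changes was not tested. Values near the floor carry only a bound, and folds of such genes depend on where the floor is set.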

Other observations

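Several further gene groups held called members in both directions, beside 6.24% of all genes higher and 6.00% lower. Of 26 hypoxia and glycolysis genes, 3 were higher in SS64 NC and 6 lower (median -0.13). *Adm*, the vasodilator peptide adrenomedullin, was at 3.99, 3.56, 4.00 and 4.18 in SS64 NC, against 8.92, 9.21, 9.02 and 9.06 in SS40 NC, a difference of -5.12 (SE 0.13, limma adjusted p = 1.22e-10), and *Car12*, a carbonic anhydrase of the cell surface, was lower, at -3.19, whereas the glucose transporter *Slc2a3* and the hexokinase *Hk1* were higher by 2.94 and 1.48. Of 19 p53 target genes, 3 were higher and 4 lower (median 0.03). *Perp*, a membrane protein of desmosomes, was at 4.06, 4.01, 3.55 and 3.60 in SS64 NC, against 9.41, 9.65, 9.48 and 9.55 in SS40 NC, a difference of -5.72 (SE 0.13, limma adjusted p = 5.75e-11), and *Phlda3* was higher by 2.21. No array of one line reached those of the other in *Adm* or *Perp*, which were named with their differences known.

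Of 12 Hedgehog genes, 1 was higher (8.33%, near the share of all genes) and 3 were lower (25.0%), with a median of -0.22. The ligand *Dhh*, made by Schwann cells, was higher by 2.20 and the transcription factor *Gli2* lower, at -2.97. Of 23 immediate early genes, 5 were higher and 2 lower (median -0.14), with *Atf3* and *Klf6* higher by 2.33 and 1.57 and *Ptgs2*, the inducible cyclooxygenase, lower, at -3.52. Of 12 smooth muscle genes, 2 were higher and 3 lower (median -0.01), *Myl9*, a myosin light chain, and *Cnn1*, calponin, lower, at -2.94 and -2.11.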
